A study of Mus musculus with 4 samples.

Results

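Genes of the smooth muscle contractile apparatus were measured in cultured mouse macrophages of 2 genotypes. The 10 genes were chosen by name out of the 34745 listed in the gene expression table. They were Acta2, Actg2, Myl9, Mylk, Tagln, Cnn1, Cnn2, Cald1, Tpm1 and Tpm2, and each symbol matched 1 row. All 10 had at least 1 count in some library, and 8 had enough counts to be tested. In 6 of these 8 genes both libraries of the knockout lay above both libraries of the control, where 19.9% of all genes tested did, and 2 of the 6, Myl9 and Mylk, were tested only through their counts in the knockout. The largest log2 fold changes were those of Myl9 (2.47), Acta2 (2.41) and Mylk (2.39). Cnn2 and Tpm1, the 2 most abundant of the 10 in the control, overlapped between the genotypes. Cnn1 and Actg2 were at 0 to 2 counts. In edgeR's quasi-likelihood test across all genes, 0 of the 8 passed an adjusted p of 0.05, and neither did any other of the 12418 genes tested.

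Total RNA was sequenced in 4 libraries. The 2 labelled WT came from G3bp1f/f mice, and the 2 labelled KO came from G3bp1mac-/- mice, in which a Cre recombinase driven by Lyz2 acts on the same floxed alleles. Both genotypes thus carried the floxed G3bp1 gene, Lyz2 drives the Cre throughout the myeloid lineage and not in macrophages alone, and the labels name no treatment and no age. The study's text describes the cells as bone marrow-derived macrophages, while the labels call them macrophages and do not say whether libraries of one genotype came from separate animals. The p-values therefore measure the spread between these libraries, which may be technical.

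Smooth muscle contracts when calcium and calmodulin activate myosin light chain kinase, which phosphorylates the regulatory light chain of myosin so that it can pull on actin filaments. Tropomyosin, caldesmon and calponin lie along these filaments and set how myosin reaches them, and transgelin binds and bundles them. Many of these genes are switched on together by serum response factor (SRF) through CArG boxes, with cofactors of the myocardin family. Macrophages use mostly the non-muscle members of the same protein families for their own actin cytoskeleton.

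The libraries held 16724241 to 19747909 counts, with 15468 to 16031 genes detected in each and 12418 genes tested. Macrophage markers summed to between 16368 and 18505 FPKM (counts per library total and gene length) in every library, of which Lyz2 alone gave 13887 to 16479, and their median log2 fold change of KO against WT was -0.17. Itgam, the integrin chain CD11b, stood apart from the rest of these markers at 0.82 (SE 0.31, unadjusted p 0.0449, adjusted p 0.725), with WT counts of 2936 and 1973 against 5784 and 4477 in KO. The targeted gene, G3bp1, had WT counts of 1691 and 2875 against 1307 and 2296 in KO, which overlap. Its log2 fold change was -0.61 (SE 0.40, edgeR adjusted p 0.904), and the ratio was -0.57 within replicate number 1 and -0.63 within number 2, lower in KO in both. Counts over the whole gene do not resolve deleted exons, so this gene did not check the labels, and every direction given here rests on them.

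Promoter sequences are shown for the CArG box, since SRF is the regulator these genes are best known to share. RefSeq windows of GRCm38.p6, from 250 bases before to 50 bases after the start, were found for 8 of the 10 genes, with 9 windows in all. The CArG box was searched as CC, then 6 bases that are each A or T, then GG. It reads the same in form on both strands and was present in 535 of 32851 mouse windows, or 1.63%. Among the 8 genes it was found in Myl9 and Cnn2. Allowing at most 1 G or C in the middle, which includes the strict form and was chosen after seeing the data, raised the background to 9.98% and added both boxes of Acta2 and a second box of Myl9. The 5 boxes are shown in capitals with 10 bases on each side, read 5′ to 3′ on the strand of the gene.
Acta2, box starting 84 bases before the start, chr19:34255438-34255467, minus strand: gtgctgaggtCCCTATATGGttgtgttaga
Acta2, box starting 34 bases before the start, chr19:34255388-34255417, minus strand: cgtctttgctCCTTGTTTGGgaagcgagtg
Myl9, box starting 161 bases before the start, chr2:156775293-156775322, plus strand: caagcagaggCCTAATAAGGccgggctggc
Myl9, box starting 99 bases before the start, chr2:156775355-156775384, plus strand: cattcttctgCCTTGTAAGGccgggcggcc
Cnn2, box starting 56 bases before the start, chr10:79988534-79988563, plus strand: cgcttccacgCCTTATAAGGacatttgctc

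The genes with a box included both those that were higher in KO, Acta2 and Myl9, and Cnn2, which was not. The windows of Cnn1, Tpm1, Tpm2, Cald1 and Mylk held no match with these letters. The sequence CATTCC, the M-CAT site of the TEAD factors, was found on either strand in the windows of Acta2, Cald1, Mylk and Tpm1, against 14.7% of all windows. TATAAA was found only in Cald1 among the 8, against 13.6%. A match is a description of the sequence and not evidence of binding.

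Levels of the 10 genes spanned more than 3 orders of magnitude on the FPKM scale. In WT the order from high to low was Cnn2, Tpm1, Acta2, Tagln, Cald1, Tpm2, Myl9 and Mylk. Tagln and Cald1 were not separated there, since the Cald1 level of WT replicate 2, 1.07 FPKM, lay between the 2 levels of Tagln. In KO the second place was held by Acta2, above Tpm1, at 15.9 and 16.0 FPKM against 5.16 and 6.22 FPKM, and all neighbours in the order were separated. FPKM divides by the length of the whole gene model, which ran from 1586 bases for Tagln to 16538 for Tpm1 and 23755 for Cald1, so long models with many isoforms receive a lower value.

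**Figure D1:**
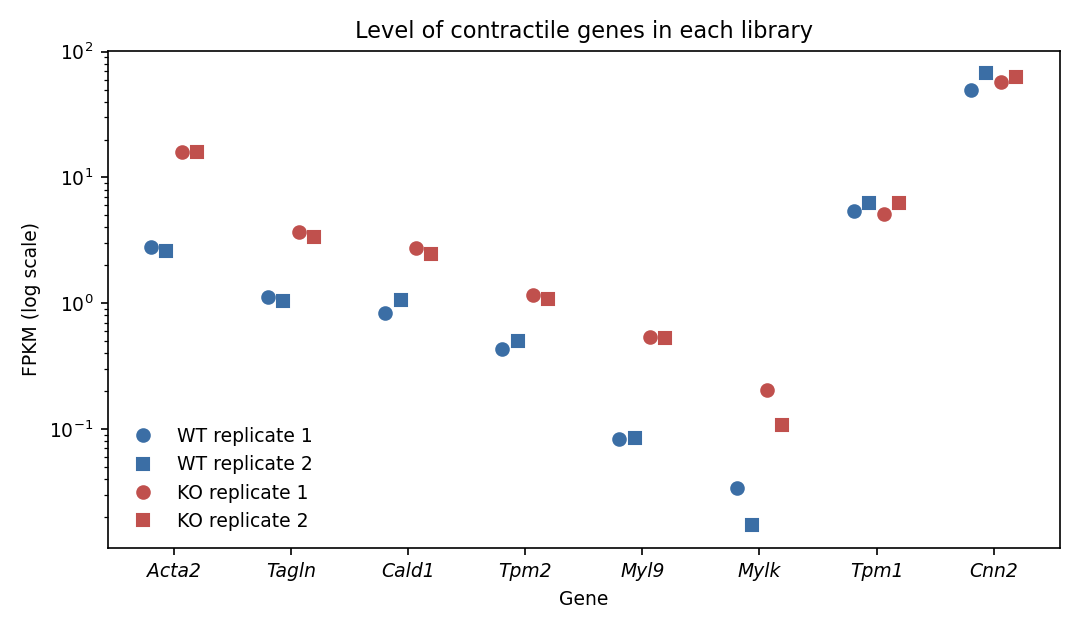
Level of each tested contractile gene in the 4 libraries, as FPKM on a log axis, with WT in blue, KO in red, circles for replicate 1 and squares for replicate 2. The red points of Acta2, Tagln, Cald1, Tpm2, Myl9 and Mylk lie above both blue points, while the 2 genotypes overlap in Tpm1 and Cnn2.

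Acta2 encodes smooth muscle alpha-actin, the actin of contractile filaments in smooth muscle and myofibroblasts. It lies on chromosome 19 of GRCm38, from 34241090 to 34255336 on the minus strand, with 9 exons in its main transcript. It had WT counts of 84 and 79 against 475 and 561 in KO. On the FPKM scale these were 2.77 and 2.62 in WT and 15.9 and 16.0 in KO. Every KO library was thus far above every WT library, and the libraries of one genotype were close to each other. The mean was 2.70 ± 0.108 FPKM in WT and 15.9 ± 0.00245 FPKM in KO (SD, n = 2 each). On the log2 scale KO exceeded WT by 2.41 (SE 0.24, 95% confidence interval 1.80 to 3.02), with ratios of 2.29 within replicate number 1 and 2.52 within number 2. Its unadjusted p of 0.000134 ranked the 4th of all genes tested, and its adjusted p was 0.216 in edgeR's quasi-likelihood test with Benjamini-Hochberg adjustment. The edgeR exact test (adjusted p 0.000114) and the DESeq2 Wald test (adjusted p 2.25e-09) both called it, and over the fits without a replicate term its adjusted p ran from 2.25e-09 to 1.0.

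Actg2, the gamma-actin of enteric smooth muscle, lies on chromosome 6 from 83512905 to 83536265 on the minus strand. It had 1 count in WT replicate 2 and 1 count in KO replicate 2, and 0 in the others. It was not tested. A count of 0 allowed up to 0.176 CPM, the count set against the library total, in WT replicate 1 and 0.179 CPM in KO replicate 1, for counting error only.

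The other actins show what Acta2 was set against. Actb and Actg1, the cytoplasmic actins of all cells, had log2 fold changes of -0.09 (SE 0.27) and 0.01 (SE 0.34), and their libraries overlapped between the genotypes. Acta1 of skeletal muscle and Actc1 of the heart were at 0 or 1 count in every library. Among the 6 actins together, Acta2 made up 0.901% and 0.585% of the summed FPKM in WT and 4.16% and 3.57% in KO. The coding sequence of Acta2 is 83.3% identical to that of Actb and 82.0% to that of Actg1, with identical runs of at most 47 and 56 bases, so some reads could in principle be placed with either gene. How the counting treated such reads is not given in the sources used here.

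**Figure D2:**
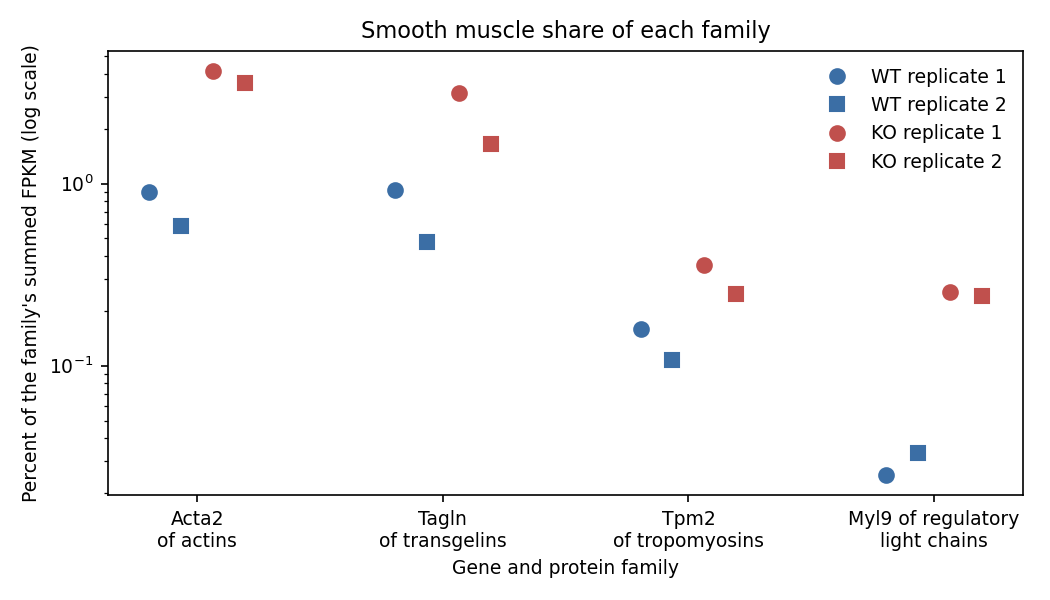
Share of each smooth muscle gene in the summed FPKM of its protein family, in percent on a log axis, for the 4 libraries. In all 4 families the KO points lie above the WT points, with Acta2 at 0.585% to 0.901% of actins in WT and 3.57% to 4.16% in KO.

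Myl9 encodes a regulatory light chain of smooth muscle myosin, the substrate of the kinase encoded by Mylk. It lies on chromosome 2, from 156775420 to 156781658 on the plus strand. It had 3 counts in each WT library against 19 and 22 counts in the KO libraries, or 0.0837 and 0.0841 FPKM against 0.539 and 0.529 FPKM. The ratio of KO to WT was 5.73, with a counting interval of 2.42 to 16.5 (95%, exact, from 6 and 41 summed counts). The fitted log2 fold change was 2.47 (SE 0.55, adjusted p 0.312), with 2.28 and 2.38 within the replicate numbers.

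Mylk, the myosin light chain kinase, lies on chromosome 16 from 34745210 to 35002420 on the plus strand. It had WT counts of 6 and 3 against 35 and 22 in KO. These were 0.0342 and 0.0172 FPKM in WT and 0.203 and 0.108 FPKM in KO, so the KO libraries differed between themselves by more than those of Myl9 did but stayed above WT. The ratio was 5.31, with a counting interval of 2.61 to 12.2 (95%, exact), and the log2 fold change was 2.39 (SE 0.61, adjusted p 0.387), or 2.25 and 2.38 within the numbers. It ran from 1.97 without WT replicate 2 or KO replicate 1 to 2.95 without WT replicate 1. Myl9 and Mylk entered the test only through their KO counts, so a difference in their favour was required for them to be tested at all.

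The light chains that macrophages use were far more abundant, and their estimates had the other sign. Myl12a and Myl12b, the non-muscle regulatory chains, had log2 fold changes of -0.62 (SE 0.26, adjusted p 0.787) and -0.57 (SE 0.29, adjusted p 0.848), and Myl6, the essential light chain of smooth muscle and non-muscle myosin, had -0.56 (SE 0.24, adjusted p 0.808). None of these passed the test. On TMM-scaled counts both KO libraries lay below both WT libraries in all 3, where 2098 of all 12418 genes did, while in FPKM Myl12b overlapped (185 and 121 in WT, 122 and 107 in KO). After correction for gene length, Myl6 stood at -0.09 while Myl12a and Myl12b stood at -0.74 and -0.51. Myl9 made up 0.0251% and 0.0333% of the regulatory light chains in WT and 0.254% and 0.241% in KO. Of the other kinases of the family, Mylk2 had WT counts of 14 and 42 against 10 and 51 in KO, so that replicate 2 was the higher in both genotypes, and Mylk3 was at 0 in every library.

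Tagln encodes transgelin, also called SM22, an actin-bundling protein that marks smooth muscle early in its differentiation. It lies on chromosome 9 from 45929628 to 45936058 on the minus strand, with 5 exons in its main transcript. It had WT counts of 30 and 28 against 97 and 106 in KO, or 1.11 and 1.04 FPKM against 3.66 and 3.38 FPKM. The genotypes did not overlap, and the difference between them was many times that between libraries of one genotype. The log2 fold change, with an SE of 0.32, was 1.55 (95% confidence interval 0.75 to 2.35, adjusted p 0.289), with 1.48 and 1.60 within the replicate numbers. The end of Tagln overlaps that of Pcsk7 on the opposite strand, which had WT counts of 342 and 397 against 488 and 476 in KO. Whether the counting used strand is not given in the sources used here, so reads from the overlap may count for either gene.

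The paralogue Tagln2, the transgelin found in many non-muscle cells, had WT counts of 6106 and 10963 against 5618 and 11873 in KO and a log2 fold change of -0.23 (SE 0.46). Replicate 2 was the higher in both genotypes, and the genotypes overlapped. Tagln3, the neuronal transgelin, had WT counts of 1 and 0 against 5 and 4 in KO and was not tested. Tagln therefore rested on a background of a far more abundant paralogue, at 0.920% and 0.481% of transgelin FPKM in WT and 3.16% and 1.66% in KO.

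Cald1 encodes caldesmon, which binds actin, tropomyosin and calmodulin and has a smooth muscle and a shorter non-muscle form. It lies on chromosome 6 from 34598500 to 34775473 on the plus strand. Its WT counts were 339 and 430 against 1096 and 1147 in KO, the highest counts of the 6 genes that lay higher in KO. On the FPKM scale it stood at 0.839 and 1.07 in WT and at 2.76 and 2.44 in KO. The log2 fold change, with an SE of 0.25, was 1.29 (95% confidence interval 0.67 to 1.91, adjusted p 0.276), with 1.49 and 1.11 within the numbers. The DESeq2 Wald test called it (adjusted p 0.00525), the edgeR exact test did not (adjusted p 0.136), and its adjusted p over the fits without a replicate term ran from 0.00525 to 1.0. With the trend in gene length removed, the log2 fold change was 0.97. Counting per gene does not tell which form was present.

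The calponins differed among themselves. Cnn1, the smooth muscle calponin (chromosome 9, 22099281 to 22109630, plus strand), had WT counts of 0 and 0 against 2 and 0 in KO and was not tested. Cnn2, the calponin of non-muscle cells that include macrophages, lies on chromosome 10 from 79988584 to 79996062 on the plus strand. Its WT counts were 2443 and 3315 against 2788 and 3633 in KO, or 49.3 and 67.3 FPKM against 57.2 and 63.2 FPKM. The KO levels lay between the WT levels, and the log2 fold change, with an SE of 0.28, was -0.10 (95% confidence interval -0.81 to 0.60, adjusted p 0.982). The interval leaves room for a difference of either sign of that size. Cnn3, the acidic calponin of many non-muscle tissues and not one of the 10, had WT counts of 80 and 133 against 309 and 412 in KO, which on the log2 scale was 1.50 (SE 0.35, adjusted p 0.348). The DESeq2 Wald test called Cnn3 (adjusted p 0.046, range 0.046 to 1.0 across all fits lacking a replicate term). Cnn2 made up 98.6% and 98.3% of calponin FPKM in WT and 95.4% and 95.3% in KO.

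Tpm2 encodes beta-tropomyosin, a main tropomyosin of smooth and skeletal muscle. It lies on chromosome 4 from 43514711 to 43523765 on the minus strand. It had WT counts of 41 and 47 against 108 and 119 in KO, or 0.433 and 0.499 FPKM against 1.16 and 1.08 FPKM. The genotypes did not overlap. The log2 fold change, with an SE of 0.31, was 1.11 (95% confidence interval 0.33 to 1.89, adjusted p 0.452), the smallest of the 6 genes that lay higher, and it was 1.19 and 1.03 within the numbers. With the trend in gene length removed, it was 0.99.

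Tpm1, which encodes alpha-tropomyosin in muscle and several shorter forms elsewhere, lies on chromosome 9 from 67022590 to 67049406 on the minus strand. Its WT counts were 1528 and 1745 against 1427 and 2032 in KO. Its level was 5.43 and 6.23 FPKM in WT and 5.16 and 6.22 FPKM in KO, so the genotypes overlapped almost fully. The log2 fold change, with an SE of 0.26, was -0.18 (95% confidence interval -0.84 to 0.48, adjusted p 0.966). GENCODE lists 21 transcripts for this gene, and the counts do not separate its muscle forms from the others.

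Of the non-muscle tropomyosins, Tpm4 had a log2 fold change of -0.20 (SE 0.37). Tpm3 had WT counts of 1095 and 1903 against 6245 and 7921 in KO, or 5.47 and 9.55 FPKM against 31.7 and 34.1 FPKM. Its log2 fold change was 1.98 (SE 0.36, adjusted p 0.262), and it was called by edgeR's exact test (adjusted p 0.0185, and from 0.000161 to 1.0 across all fits lacking a replicate term). Tpm3-rs7, a related sequence of Tpm3 on chromosome 14 that was looked up after the values of Tpm3 were seen, had WT counts of 4981 and 7017 against 2748 and 3726 in KO, the opposite direction. Summed over both and scaled by TMM, the level was 374 and 560 CPM in WT and 482 and 591 CPM in KO, which overlap. Scaled by the library totals alone it was 357 and 527 CPM in WT and 538 and 590 CPM in KO, which do not, so the overlap depends on the scaling. The share of the sum assigned to Tpm3 was 18.0% and 21.3% in WT and 69.4% and 68.0% in KO. Reads of the gene and its copy may be split by the aligner, so the Tpm3 difference is uncertain. Over all 14 paralogues, 10 were tested with a median log2 fold change of -0.18, and 3 lay above 0, where 6776 of all 12418 genes did. The KO libraries were both above the WT ones in 2, where 19.9% of all genes were. They were both below in 3, where 2098 of all 12418 genes were. At an unadjusted p under 0.05, Tpm3 and Cnn3 were higher, where 4.64% of all genes were.

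**Figure D3:**
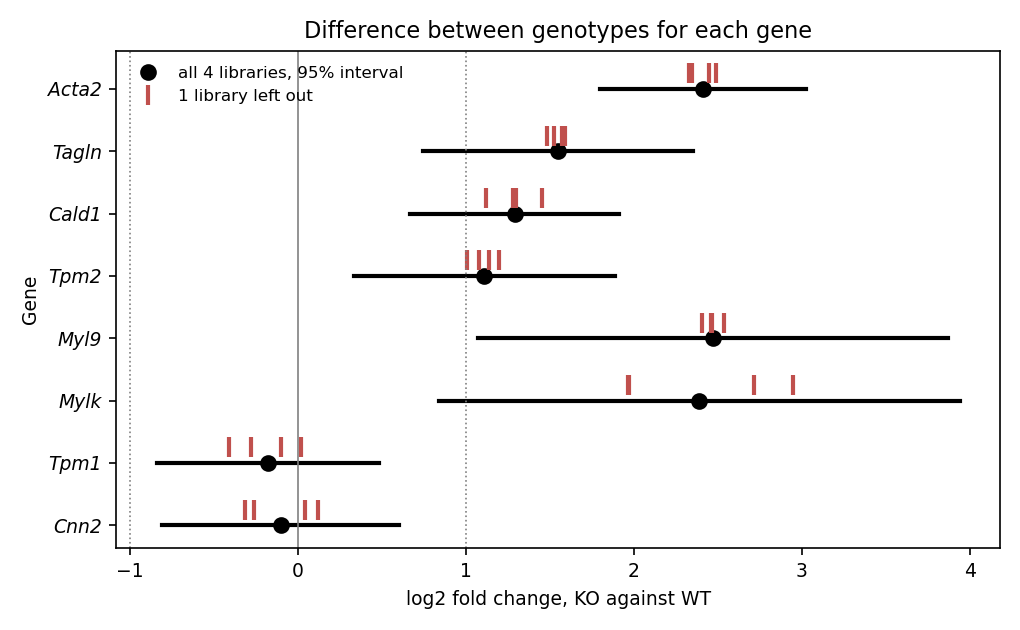
Log2 fold change of KO against WT for each tested gene, with its 95% confidence interval (black) and the values with 1 library left out (red ticks), and dotted lines at the fold limit of 1 on the log2 scale. The ticks of the 6 upper genes all lie above 1, from 1.01 for Tpm2 to 2.95 for Mylk, while those of Tpm1 and Cnn2 lie on both sides of 0.

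Set against all genes, the 10 read as follows. With a call set at an adjusted p below 0.05 and a log2 fold change beyond 1 in either direction, the quasi-likelihood test called 0 of the 8 members tested and 0 of all 12418 genes, a share of 0%. At an unadjusted p under 0.05, 6 of the 8 were higher in KO, where 4.64% of all genes were, and 0 were lower. The genotypes did not overlap, with KO above, in those 6, and the same held for 19.9% of all genes. Without Myl9 and Mylk, which could be tested only because they were high in KO, both counts were 4 of 6. The exact test called Acta2, where it called 1.16% of all genes higher in KO, and the Wald test called Acta2 and Cald1, where it called 1.10%. The median log2 fold change of the 8 genes tested was 1.42, and that of the 6 tested through both genotypes was 1.20, where the median over all genes was 0.04. As the genes were chosen with earlier results known, these shares are a description of the list.

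The size of the difference varied among the 6 genes. The ratio of Acta2 to Tagln in FPKM was 2.49 and 2.51 in WT and 4.36 and 4.71 in KO, and that of Acta2 to Tpm2 was 6.40 and 5.25 in WT and 13.7 and 14.7 in KO. For Tagln over Cald1 the values were closer, with WT ratios of 1.33 and 0.975 beside KO ratios of 1.33 and 1.38. These ratios compare 2 genes within a library and do not depend on how libraries were scaled, and no test was made of their differences. They do depend on any trend with gene length that differs between libraries. With that trend removed, the log2 fold changes were 2.55 for Acta2, 1.74 for Tagln, 0.97 for Cald1 and 0.99 for Tpm2.

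A positive ratio within each replicate number follows from the lack of overlap in the 6 genes, so only the sizes are given here. The smallest of their 12 ratios was 1.03, for Tpm2 within number 2, and the largest was 2.52, for Acta2 within number 2. Each number holds 1 library per genotype, so these ratios carry no error of their own.

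**Figure D4:**
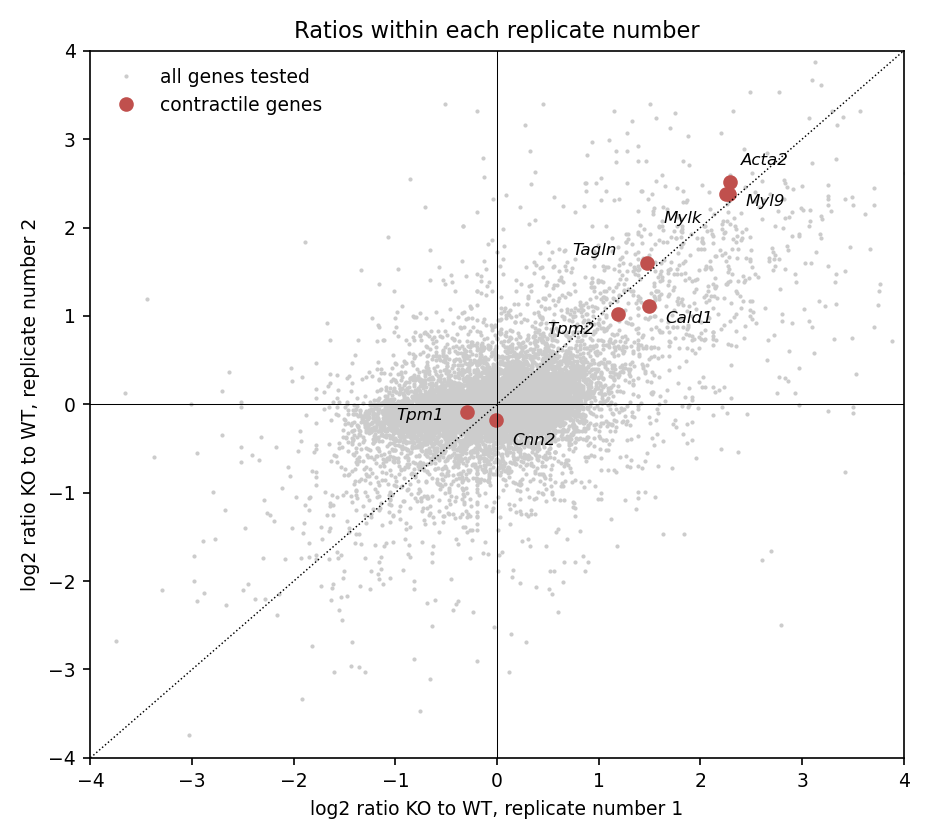
Log2 ratio of KO to WT within replicate number 1 (horizontal) and within number 2 (vertical) for all 12418 genes tested (grey) and the contractile genes (red), with a dotted line where both are equal; points beyond 4 on either axis are not drawn. The 6 higher genes lie near the line between 1.03 and 2.52, and Tpm1 and Cnn2 lie near 0 on both axes.

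Partners of the contractile proteins were read from a list of 50 genes, which held myosin heavy chains, alpha-actinins, filamins, focal adhesion proteins and myosin phosphatase subunits among others. Of these, 42 were tested, 35 lay above 0, where 6776 of all 12418 genes did, and their median log2 fold change was 0.22. Within replicate number 1 that median was 0.40, where that of all genes was 0.11. Within number 2 the median of the list was 0.04, where that of all genes was -0.0015. The difference of the list as a whole was thus close to 0 within number 2. At an unadjusted p under 0.05, 6 were higher, where 4.64% of all genes were, and 0 were lower in KO. The adjusted threshold was passed by 0. The KO libraries were both above the WT ones in 15 partners, where 19.9% of all genes were, and both below in 3, where 2098 of all 12418 genes were. Synpo was tested only through its KO counts, and without it 5 of 41 were higher at the unadjusted p and 14 lay above without overlap. Des encodes desmin, the intermediate filament protein of muscle. It had WT counts of 70 and 88 against 347 and 427 in KO, which on the log2 scale was 2.03 (SE 0.28, adjusted p 0.216), and it was the only partner that the exact test called (adjusted p 0.0039, and from 1.99e-05 to 1.0 across all fits lacking a replicate term). The exact test called 1.16% of all genes higher in KO.

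Parva, the focal adhesion protein alpha-parvin, had WT counts of 22 and 39 against 140 and 129 in KO (log2 fold change 1.88, adjusted p 0.296), and the DESeq2 Wald test called it (adjusted p 0.028, range 0.028 to 1.0 across all fits lacking a replicate term). Flnc, the muscle filamin that crosslinks actin, had 20 and 25 counts against 103 and 73 (1.72, adjusted p 0.337). Smtn, smoothelin, a protein of contractile smooth muscle, had 26 and 33 counts against 108 and 90 (1.49, adjusted p 0.348). Synpo, the actin-associated protein synaptopodin, had 5 and 2 counts against 14 and 15 (1.77, SE 0.65, adjusted p 0.690), and the value ran from 1.25 without WT replicate 2 to 2.53 without WT replicate 1. These 5 partners were named for the size of their difference.

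Of the smooth muscle genes, Myh11 and Lmod1 were scarce, while Des and Smtn, given above, were tested. Myh11, the smooth muscle myosin heavy chain, had WT counts of 1 and 2 against 11 and 5 in KO, a ratio of 4.47 with a counting interval of 1.28 to 24.0 (95%, exact). Lmod1, the smooth muscle leiomodin, had 1 count in KO replicate 2 and 0 elsewhere. Neither passed the filter, so neither was tested.

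The regulators of these genes were read from a list of 26, of which 23 were tested. The median over these was 0.38 on the log2 scale. It was 0.56 within replicate number 1 and 0.17 within number 2, where that of all genes was 0.11 and -0.0015. Of the 23, 21 lay above 0, where 6776 of all 12418 genes did. At an unadjusted p under 0.05, 6 were higher in KO, where 4.64% of all genes were, and 0 passed the adjusted threshold. Ctgf and Tead3 were tested only through their KO counts, and without them 19 of 21 lay above 0 and 4 had such a p. Srf itself had WT counts of 372 and 804 against 530 and 813 in KO, which on the log2 scale was -0.07 (SE 0.44). This value ran from -0.53 without WT replicate 1 to 0.57 without WT replicate 2. Its cofactors Mkl1 and Mkl2, the myocardin-related transcription factors, had -0.04 (SE 0.55) and 0.33 (SE 0.34), with overlapping libraries. With 1 library left out, Mkl1 ran from -0.83 (KO replicate 1) to 0.58 (WT replicate 1) and Mkl2 from -0.15 (KO replicate 1) to 0.68 (KO replicate 2), so no direction held for Srf or these cofactors. Myocd, myocardin, was at 0 counts in every library.

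The 5 regulators with the largest differences were Tead3, Ctgf, Tgfb3, Wwtr1 and Yap1. Ctgf, a matricellular target of YAP and TGF-beta, had WT counts of 4 and 5 against 38 and 25 in KO (log2 fold change 2.53, adjusted p 0.300). Tgfb3, a TGF-beta ligand, had 14 and 10 counts against 110 and 38 (2.38, SE 0.67, adjusted p 0.463), and the value ran from 1.36 without KO replicate 1 to 2.97 without KO replicate 2. The coactivators of the TEAD factors, Wwtr1 and Yap1, had 26 and 17 counts against 106 and 80 (1.86, adjusted p 0.305) and 22 and 17 counts against 82 and 77 (1.77, adjusted p 0.289). Tead3 had 0 counts in both WT libraries and 15 and 18 in KO, at least 4.61-fold higher against a floor of 3 counts per library (adjusted p 0.282). It encodes a TEAD factor and was the only regulator that the exact test called (adjusted p 0.00241, range 0.00241 to 1.0 across all fits lacking a replicate term). That test called 1.16% of all genes higher in KO. Tead3 and Ctgf entered the test only through their KO counts, so a higher level in KO was required for them to be tested at all.

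Markers of other cell types were read beside these results. Of the 12 fibroblast and stromal markers, all were tested, and 11 lay above 0, where 6776 of all 12418 genes did. In 10 the KO libraries were both above the WT ones, where 19.9% of all genes were. Lum was tested only through its KO counts, and without it these counts were 10 and 9 of 11. Their summed level was 28.2 and 31.9 FPKM in WT and 121 and 107 FPKM in KO, with a median log2 fold change of 1.94. The exact test called 8 of them higher in KO, where it called 1.16% of all genes higher in KO. The largest differences were those of Col1a1 (2.68, SE 0.41, adjusted p 0.250), Postn (2.59, SE 0.49, adjusted p 0.276), Col1a2 (2.48, SE 0.28, adjusted p 0.216), Sparc (2.22, SE 0.23, adjusted p 0.216) and Col3a1 (2.17, SE 0.32, adjusted p 0.227), which encode fibrillar collagens and the matrix proteins periostin and SPARC. Lox (-0.10) had WT counts of 12 and 309 against 48 and 319 in KO. Thy1 (0.53) had 5 and 10 against 11 and 15, and both genes overlapped between the genotypes. Most stromal markers were thus higher in the same libraries as the 6 contractile genes, and the part of these markers in the result was not tested.

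Smooth muscle and pericyte markers summed to 1.41 and 1.84 FPKM in WT and 6.33 and 6.55 FPKM in KO, and 5 of the 12 were tested. Des and Smtn, which are also among the partners, gave most of this sum. Rgs5, Notch3, Cspg4, Mcam and Itga8 had 0 to 4 counts in every library. Pdgfrb, the receptor that marks pericytes, had WT counts of 4 and 32 against 16 and 73 in KO, with replicate 2 the higher in both genotypes and the genotypes overlapping. Their part in the result was likewise not tested. In bulk samples, more cells of a type and more RNA per cell cannot be told apart.

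Endothelial markers summed to 3.20 to 3.31 FPKM in WT and 3.52 to 5.67 FPKM in KO, with a median log2 fold change of 0.04 over the 4 tested. Vwf, von Willebrand factor, had the largest difference of these, 0.86 (SE 0.30, unadjusted p 0.0317, adjusted p 0.654), with 1.29 and 0.933 FPKM in WT and 2.77 and 1.75 FPKM in KO. Of the platelet markers only Pf4 was tested, at -0.94 (SE 0.33, unadjusted p 0.034, adjusted p 0.665). Its WT counts were 3647 and 2373 against 1496 and 2264 in KO, while the other platelet markers had 0 to 9 counts in every library. Skeletal and cardiac muscle markers summed to at most 0.353 FPKM, and 0 of the 8 were tested.

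**Figure D5:**
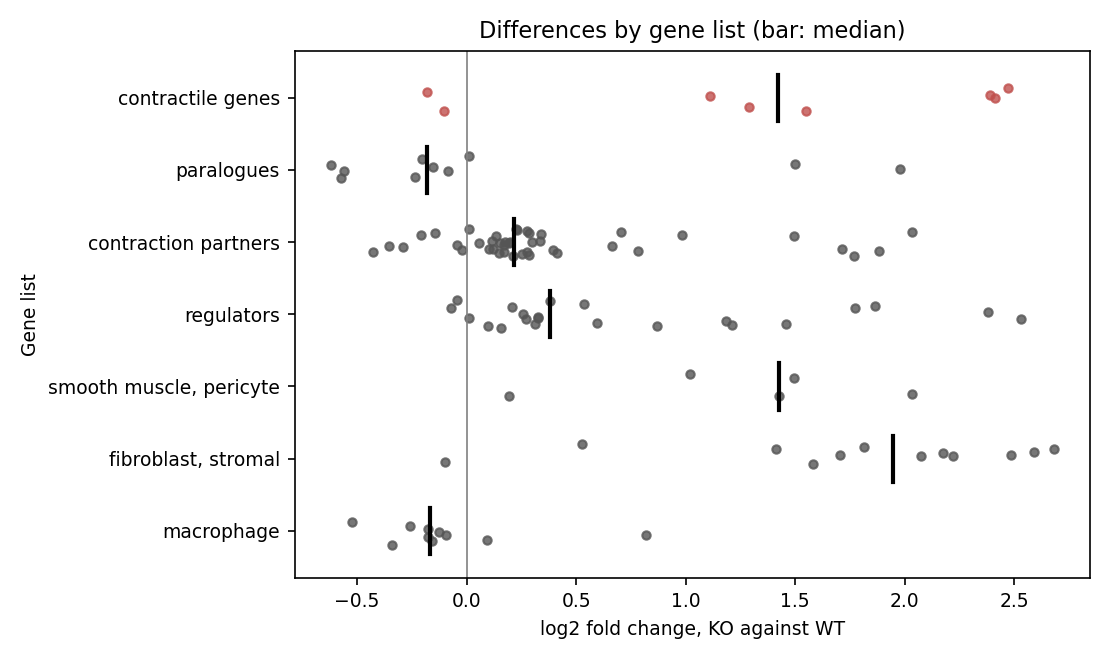
Log2 fold change of KO against WT for each tested gene of 7 lists, with a black bar at the median of each list. The contractile genes have a median of 1.42 and the fibroblast and stromal markers of 1.94, while the paralogues and the macrophage markers have medians of -0.18 and -0.17; Tead3 of the regulators, at 0 counts in WT, counts in the median but is not drawn.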

How the data were processed

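Total RNA of 4 macrophage libraries (2 WT, 2 KO) was sequenced on an Illumina NovaSeq. The authors filtered the reads with Seqtk. The submitters' processing notes name HISAT2 2.0.4, StringTie 1.3.3b and the build mm39. The authors deposited raw counts per gene and, beside each, an FPKM value. Dividing one by the other gave a gene length that varied by at most 0.00398% across libraries in 10564 genes (those above 20 counts throughout), so FPKM carries the library total and no further factor. Of 34344 gene identifiers also in GENCODE M21, 27776 had the same start and end as there, and coordinates are therefore stated for GRCm38.

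The analysis used edgeR 4.0.16 under R 4.3.3. Counts passed filterByExpr (minimum count 10 and total 15), were scaled by TMM (factors 0.955 and 0.942 in WT, 1.12 and 0.997 in KO) and were tested across all genes with glmQLFit and glmQLFTest, two-sided, with genotype as the only term. Calls needed a Benjamini-Hochberg adjusted p below 0.05 together with a log2 fold change beyond 1 in either direction. Errors and intervals of fold changes come from the quasi-likelihood F statistic. Adjusted p-values with no test named are from this fit. Overlap of genotypes in counts of genes was read from TMM-scaled CPM. For ratios within a replicate number, 0.5 was added to each count. An exact permutation test of 2 against 2 libraries cannot go below p = 0.333, so none is given for single genes. No library was a copy of another (chi-square per degree of freedom 22.7 to 125 between pairs). Intervals and floors (3 counts) cover counting error only. The members, gene lists and marker lists were chosen with earlier results of these data known. Named were the 10 members, their paralogues, G3bp1, Srf and its cofactors, Myh11, Lmod1, Smtn and Des, and up to 5 tested genes per list with the largest absolute fold change. Some markers that were scarce or overlapped between the genotypes were also named.

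Alternatives were DESeq2 size factors, other filters, a term for the replicate number, a gene length correction (loess, span 0.5), each library left out, edgeR's exact test (tagwise dispersion), the Wald test of DESeq2 1.42.0, limma 3.58.1 on log2(FPKM + 1) and log2(FPKM + 0.1) with a filter of 0.1 FPKM in 2 libraries, and no minimum fold. The code was tested on simulated data. Identity of coding sequences was computed from GENCODE M21 transcripts with Biopython 1.88.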

Additional observations from a re-analysis of the deposited data

How the results depend on the processing

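The number of genes called depended on the test. Against 0 in the quasi-likelihood test, the DESeq2 Wald test called 181 genes, 2 of them contractile members (Acta2, Cald1) and 2 partners. The edgeR exact test called 174, with 1 member (Acta2) and 1 partner. Limma on log2(FPKM + 0.1) called 2 genes and no member. The other settings without a replicate term, including each library left out in turn, called 0, against 372 to 1318 genes at an unadjusted p under 0.05. A count of 0 therefore does not show that no gene differed. The libraries share replicate numbers 1 and 2, but nothing says what a number marks, and 2 pairs are too few to establish a pairing. After centring each genotype, libraries with the same number had a correlation of 0.691 over genes. Adding the replicate block gave 664 calls (494 higher and 170 lower in KO), among them 6 members (Acta2, Tagln, Myl9, Mylk, Cald1 and Tpm2) and 4 partners, and lowered the biological coefficient of variation between libraries from 0.343 to 0.169. Joining that block to the length correction gave 319 calls (225 higher and 94 lower), with 2 members (Acta2, Tagln) and 3 partners. The median log2 fold change of the members, 1.42, was 1.20 with a mean CPM of at least 1, which leaves out Myl9 and Mylk, 0.52 with limma on log2(FPKM + 1) and 1.24 with limma on log2(FPKM + 0.1), where the added constant shrinks low genes. The median over all genes was 0.04, and became 0.11 and 0.18 in the limma fits and -0.06 with the length correction. Of 110 values of single members under the alternatives, 94 kept direction and side of the threshold, 11 passed it and 5 changed sign. With 1 library left out, Cnn2 ran from -0.31 to 0.12 (the highest without WT replicate 2, and 0.042 when KO replicate 1 was left out) and Tpm1 from -0.41 to 0.019 (without KO replicate 1). Cnn2 was also 0.061 with limma on log2(FPKM + 1) and 0.062 with log2(FPKM + 0.1). Depth limited Myl9, Mylk, Cnn1 and Actg2, with at most 6 counts per library in WT.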
